A study of Rattus norvegicus with 6 samples.

Results

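Complement is a set of plasma and membrane proteins that tag and lyse targets, and 9 of its genes that stromal cells can make were looked up by symbol in the RNA counts of cultured vascular smooth muscle (VSM) cells: C1r, C1s, C2, C3, C7, Cfb, Cfd, Serping1 and Cd55. Of these, 6 had a row among the 14475 genes of the table: C1r, C1s, Serping1, C2, C3 and Cd55. C7, Cfb and Cfd had no row under these symbols in the table used here and were not analysed. The VSM cells came from the soleus feed artery (SFA), which supplies the soleus muscle, of male Fischer 344 rats aged 4 months (young, 3 libraries) or 24 months (old, 3 libraries). The study's methods give 3 rats per age group. The labels name no treatment and no transgene for either group, and all cells were grown as bulk cultures in medium with fetal bovine serum. The passage number is not given in the sources used here. In such cultures, fewer cells of a type and less RNA per cell cannot be told apart.

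As background, the classical route of complement starts when C1q binds a target and activates the serine proteases C1r and C1s. C1s cuts C4 and C2, and the resulting enzyme cuts C3, the protein on which all routes of activation meet. The lectin route reaches C4 and C2 through the proteases Masp1 and Masp2. Serping1 encodes the C1 inhibitor, which blocks C1r, C1s and the Masp proteases, and Cd55 encodes decay-accelerating factor, a membrane protein that breaks up the enzymes that cut C3. The liver makes most complement of plasma, while fibroblasts and other stromal cells make some components locally, and interleukin-6, interleukin-1 and interferons are known inducers.

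Values are CPM, the count of a gene scaled to a common library size, with library sizes normalized by the trimmed mean of M-values (TMM). Gene lengths were not used, so each level is compared between libraries and never between genes. Counts on genes ranged from 44235674 to 59700887 per library. A gene is said to be called where its adjusted p is under 0.05 and its absolute log2 fold change is at least 1, the thresholds of the study. In old against young VSM cells, edgeR's quasi-likelihood test called 0 of the 6 complement genes, with 0.00691% of all genes called, and limma-voom called 0. At an unadjusted p under 0.05, edgeR gave 2 of the 6, C2 and Serping1, while 22.6% of all genes lay below that limit. The DESeq2 Wald test called the same genes, C2 and Serping1, both higher in old, where it called 5.56% of all genes, 2.25% higher in old. Both genes were called by DESeq2 with each library left out as well, when it called higher 2.27%, 1.65% and 1.95% of all genes without young replicate 1, 2 or 3 and 3.7%, 1.85% and 1.75% without old replicate 1, 2 or 3. At a looser adjusted p under 0.1 edgeR called 0 of the 6 and 2.63% of all genes.

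Of the 6 genes, 5 had a log2 fold change above 0 and 1 below 0, with a median of 1.85, whereas 52% of all genes lay above 0 and their median was 0.02. For C1s, Serping1 and C2 each of the 3 old libraries exceeded each of the 3 young ones, a position held by 14.5% of all genes. The other 3 genes, C1r, C3 and Cd55, overlapped between the age groups. Old replicate 2 was the highest library for C1r, C1s, Serping1 and C3, which is 4 of the 6 genes, against 18.96% of all genes. Young replicate 3 was the lowest library for 5 of the 6 genes, all but C2, against 22.8% of all genes. Each gene is therefore given below by library, with its fold change without old replicate 2 where that moved.

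Markers of smooth muscle and of other cell types that such a culture could hold were read in the same libraries. All 12 smooth muscle markers were in the table. In 11 the old libraries all lay below the young (14.7% of all genes), and DESeq2 called 8 lower (3.31% of all genes). The summed level of the 12 was 17134 to 28974 CPM in young and 6258 to 9513 CPM in old, highest of all in young replicate 3. Of 15 fibroblast markers, 14 were in the table. By fold change 11 of these were higher in old (52% of all genes), and DESeq2 called 3 higher (2.25% of all genes). In 5 the old libraries all lay above the young (14.5% of all genes), and in 0 all below (14.7% of all genes). The 14 markers summed to 15166 to 17710.0 CPM in young and 18026 to 19763 CPM in old. Fn1, the fibronectin gene, made up most of each fibroblast sum. Without it the sums overlapped, at 2964, 2710.2 and 4346 CPM in young and 3376, 4020 and 5626 CPM in old. Of these, Postn, the periostin gene, gave 1397.5, 1242 and 3305 CPM in young and 1414.5, 1109 and 2776 CPM in old. Most of the young replicate 3 value was thus Postn. Old replicate 2 was the highest library for 5 of the 14 fibroblast markers (18.96% of all genes). Young replicate 3 was the lowest for 7 of them (22.8% of all genes). Of 14 macrophage markers, 5 were in the table, their sums overlapped (5.72 to 17.1 CPM in young and 11.4 to 17.9 CPM in old) with the lowest in young replicate 3 and the highest in old replicate 2, and Ptprc, Adgre1, Aif1 and Cd163 had no row under their symbols here. Endothelial markers (9 of 12 in the table) summed to 134 to 392 CPM in young and 38.4 to 93.2 CPM in old. Most of that sum was Eng, the endoglin gene, and without it the sums overlapped, at 48.1, 43.6 and 47.2 CPM in young and 45.2, 39.3 and 33.5 CPM in old. By fold change 6 of the 9 endothelial markers were lower in old and 3 were higher (Pecam1, Vwf and Tek). DESeq2 called 3 of the 9 lower (3.31% of all genes). Mesothelial markers (5 of 10) summed to 43.7 CPM in old replicate 2 and to 7.16 to 17.3 CPM in the other libraries, mostly from Msln, without which old replicate 2 had 9.56 CPM and the others 4.52 to 8.22 CPM. Skeletal muscle markers (7 of 12) summed to 167 to 390.2 CPM in young and 25.2 to 55.9 CPM in old, and adipocyte markers (4 of 10) to 8.33 to 18.7 and 9.16 to 17.1 CPM. The part of these cell types in the complement values was not tested.

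**Figure D1:**
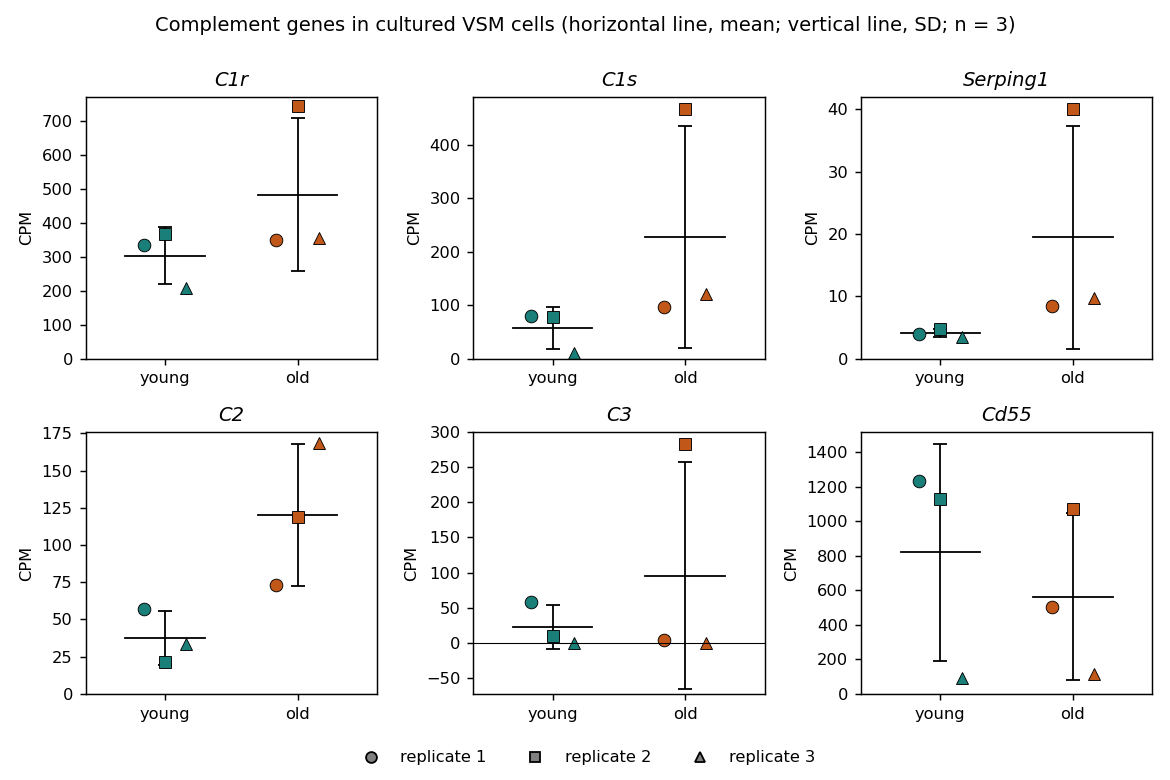
CPM of C1r, C1s, Serping1, C2, C3 and Cd55 (vertical axes, 1 scale per gene) in the 3 young and 3 old libraries (points, shaped by replicate number), with the mean (horizontal line) and SD (vertical line). C2 is the gene whose old libraries are spread most evenly above the young ones, from 73.4 to 168 CPM, while in the panels of C1r, C1s, Serping1 and C3 old replicate 2 stands far above the other libraries.

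C1r (ENSRNOG00000011796), the first protease of the classical route, had 336, 369 and 208 CPM in young replicates 1, 2 and 3. In old replicates 1, 2 and 3 it had 350.2, 746 and 356 CPM. Old replicates 1 and 3 thus lay within the young range, and only old replicate 2 was above it. The means were 304 ± 85.0 CPM for young (SD, n = 3) and 484 ± 227 CPM for old (SD, n = 3). The log2 fold change was 0.67 with a 95% confidence interval from -0.21 to 1.55 and an adjusted p of 0.312 in edgeR's test. Without old replicate 2 it was 0.215. In the RefSeq annotation, C1r and C1s are neighbors, and a long noncoding RNA gene overlaps C1r, so part of the reads there cannot be assigned with certainty where strand was not used in counting.

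C1s (ENSRNOG00000011971), the protease that C1r activates, had 79.7, 78.2 and 10.95 CPM in the young libraries. The old libraries had 95.7, 467 and 120.0 CPM. All old libraries lay above the young, old replicate 1 only just. Young replicate 3 was far below the other young libraries, and old replicate 2 far above the other old libraries. The means were 56.3 ± 39.3 CPM (SD, n = 3) and 227 ± 208 CPM (SD, n = 3). Its fitted difference of 2.01 on the log2 scale had an interval from -0.16 to 4.19 and did not pass the test (adjusted p = 0.242 from edgeR and 0.153 from DESeq2). It was 0.94 without old replicate 2.

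Serping1 (ENSRNOG00000007457), the inhibitor of both proteases, had 4.01, 4.74 and 3.40 CPM in the young libraries, from 181, 285 and 167 counts. In the old libraries it had 8.48, 40.1 and 9.72 CPM, from 422, 2086 and 521 counts. The young libraries lay close together, within 1.39 times of each other, and the lowest old library was above all of them. The means were 4.05 ± 0.670 CPM (SD, n = 3) and 19.4 ± 17.9 CPM (SD, n = 3), and the old SD came mostly from replicate 2. The log2 fold change was 2.26 (95% confidence interval 0.72 to 3.80, adjusted p = 0.129 from edgeR). DESeq2 called it higher in old (adjusted p = 0.00293), as it did with each library left out in turn. Without old replicate 2 its log2 fold change in DESeq2 was 1.16 (adjusted p = 6.12e-05).

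C2 (ENSRNOG00000051235), which C1s cuts to form the catalytic part of the enzyme acting on C3, had 57.1, 21.6 and 33.2 CPM in the young libraries. It had 73.4, 119 and 168 CPM in the old libraries. Unlike the genes above, its highest library was old replicate 3, and its young libraries were lowest in replicate 2. The means were 37.3 ± 18.1 CPM (SD, n = 3) and 120.2 ± 47.5 CPM (SD, n = 3). A difference of 1.69 on the log2 scale had a 95% confidence interval from 0.64 to 2.74 and an adjusted p of 0.114 in edgeR. DESeq2 called C2 higher in old (adjusted p = 0.00214) and did so with each library left out, at log2 fold changes from 1.36 to 2.12. In edgeR it was 1.695 without old replicate 2. In the RefSeq annotation C2 overlaps Zbtb12, and any reads shared with that gene cannot be told apart here. Cfb is the next neighbor of C2 and does not overlap it there.

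C3 (ENSRNOG00000046834), the central component, varied most. The young libraries had 2622, 611 and 0 counts, or 58.1, 10.2 and 0 CPM. The old libraries had 210, 14700 and 12 counts, or 4.22, 283 and 0.224 CPM. A count of 0 in young replicate 3 allows up to 3 counts, or 0.0611 CPM, with counting error alone and independent counts. Thus replicate 3 of each age group had little or no C3 RNA, and the range within old VSM cells was 1263-fold. The SD of log2 CPM within age groups was 5.30, the largest among 12257 genes averaging above 1 CPM. The log2 fold change was 2.08 with an interval from -3.71 to 7.86 (adjusted p = 0.621 from edgeR), DESeq2 gave C3 no adjusted p, and without old replicate 2 the fold change turned to -3.35 on the log2 scale.

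Cd55 (ENSRNOG00000003927), the membrane regulator, had 1232, 1130 and 94.85 CPM in the young libraries and 502, 1073 and 113 CPM in the old libraries. Replicate 3 was the lowest library in each age group, 13.0 times below the highest young library and 9.53 times below the highest old library. The age groups overlapped. The means were 819 ± 629 CPM for young (SD, n = 3) and 562 ± 483 CPM for old (SD, n = 3). The fitted log2 difference was -0.54 with an interval from -3.07 to 1.98 (adjusted p = 0.774 from edgeR), which leaves room for a large difference in either direction. Without old replicate 2 it was -1.41 and without old replicate 3 it was -0.057. Of genes averaging above 1 CPM, 0.48% had a larger SD within age groups than Cd55.

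The start regions of C1r, C3 and Cd55 are shown because RefSeq promoter sequences matched only these 3 of the 6 genes. All 3 had their lowest value in young replicate 3, but so did C1s and Serping1, so this does not set them apart. Each runs from 250 bases before to 50 bases after the annotated start in the assembly GRCr8, 5′ to 3′ on the strand of the gene. C1r lies at chr4:159098763-159099062 on the plus strand, C3 at chr9:2201290-2201589 on the minus strand and Cd55 at chr13:44438052-44438351 on the minus strand. Capitals mark matches on either strand to TTNNGNAAT, a form of the site of C/EBP factors, which act in the response to interleukin-1 and interleukin-6.
C1r: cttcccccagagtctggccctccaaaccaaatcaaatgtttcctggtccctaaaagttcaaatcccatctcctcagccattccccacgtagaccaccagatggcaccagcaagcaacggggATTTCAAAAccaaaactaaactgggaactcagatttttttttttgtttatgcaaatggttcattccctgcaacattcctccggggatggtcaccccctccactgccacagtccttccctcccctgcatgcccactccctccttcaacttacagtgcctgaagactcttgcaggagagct
C3: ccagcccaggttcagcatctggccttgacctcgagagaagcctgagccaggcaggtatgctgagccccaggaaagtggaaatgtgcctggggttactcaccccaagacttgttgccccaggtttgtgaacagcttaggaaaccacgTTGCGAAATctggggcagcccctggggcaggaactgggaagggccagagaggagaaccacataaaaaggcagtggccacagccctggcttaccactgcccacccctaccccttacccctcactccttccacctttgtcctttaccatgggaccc
Cd55: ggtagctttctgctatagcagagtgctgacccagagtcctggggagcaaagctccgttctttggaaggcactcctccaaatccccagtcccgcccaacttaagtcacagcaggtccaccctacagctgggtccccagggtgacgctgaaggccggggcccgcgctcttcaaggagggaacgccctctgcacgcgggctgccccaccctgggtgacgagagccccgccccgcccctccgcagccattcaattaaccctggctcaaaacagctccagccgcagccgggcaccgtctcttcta
The C3 window held the match TTGCGAAAT at bases -104 to -96 from the start, and the C1r window held ATTTCAAAA, the same pattern on the other strand, at bases -129 to -121. The Cd55 window held no match to these letters. Of 33469 windows of this length, 12.3% held the pattern. The letters TTCNNNGAA (STAT factors), GAAA followed after 2 free bases by GAAA (IRF factors), GGG followed after 2 free bases by TTTCC (NF-kappaB) and TATAAA were searched on both strands and matched in none of the 3 windows, and were in 8.87%, 3.92%, 1.53% and 14.2% of all windows. A match is a description of the sequence and not a bound site.

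Ratios of counts within a library do not depend on how libraries are scaled to each other. The ratio of C1r to C1s counts was 4.21, 4.72 and 18.98 in the young libraries and 3.66, 1.599 and 2.97 in the old libraries, so the old libraries were all lower. The ratio of C1r to Serping1 counts, a protease over its inhibitor, was 83.7, 77.8 and 61.1 in young and 41.3, 18.6 and 36.6 in old. It also did not overlap between the age groups. The mean log2 difference between old and young was -1.48 for C1r to C1s and -1.27 for C1r to Serping1, each with an exact two-sided permutation p of 0.10, the smallest that 3 libraries against 3 can give, and 0.20 after adjustment over 4 ratios. With each library left out, the difference lay between -1.87 and -0.78 for C1r to C1s and between -1.50 and -0.92 for C1r to Serping1.

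The ratio of C1s to Serping1 was alike in the 3 old libraries, at 11.3, 11.6 and 12.3, although old replicate 2 had several times more of each RNA than the other old libraries. In the young libraries it was 19.9, 16.5 and 3.22, lowest in replicate 3, the library that was also lowest in C1s. The difference in mean log2 ratio was 0.205 (exact permutation p = 1.0) and it turned to -0.63 without young replicate 3. The ratio of C2 to C1s was 0.716, 0.277 and 3.04 in young and 0.767, 0.255 and 1.40 in old. In each age group it was lowest in replicate 2 and highest in replicate 3 (difference -0.38, exact permutation p = 0.80). It turned to 0.55 without young replicate 3 and to 0.30 without old replicate 2. The ratio of C3 to Cd55 could not be taken on a log scale with its 0 in young replicate 3, and its values were 0.0471, 0.0090 and 0 in young and 0.0084, 0.264 and 0.0020 in old.

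**Figure D2:**
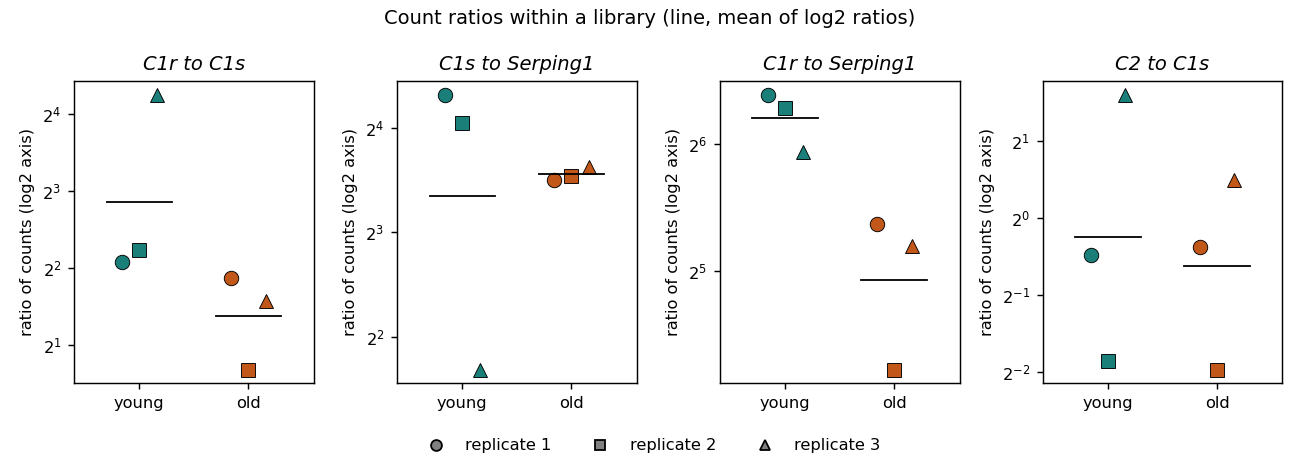
Ratios of raw counts of 2 complement genes within each library (points, shaped by replicate number, log2 axes), with the mean of the log2 ratios as a line, for 3 young and 3 old libraries. The old libraries lie below the young for C1r to C1s and C1r to Serping1, and those of C1s to Serping1 lie together between 11.3 and 12.3.

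The rest of the complement system was taken from a list of 47 further genes, of which 17 were in the table. Of these, 11 were higher and 6 lower in old by fold change, and the median change was 0.46 on the log2 scale. In 7 the old libraries all lay above the young (14.5% of all genes) and in 2, Cd46 and Cd93, all below (14.7% of all genes). edgeR called 0 of the 17 with all libraries, 9 had an unadjusted p under 0.05 (22.6% of all genes), and limma-voom called 0. DESeq2 called 4 higher in old, C4a, C4b and C5ar2 among them, where 2.25% of all genes were called higher. It called 1 lower, Cd93, where 3.31% of all genes were called lower. C1qa, C1qb and C1qc, which encode C1q and are made mainly by macrophages, had no row under their symbols here, nor did C5, C6, C3ar1 or C5ar1, and these were not analysed.

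Among the components, C4a (ENSRNOG00000066573) had 60, 96 and 27 counts in young against 155, 423 and 155 counts in old libraries. Its log2 fold change was 2.02 (adjusted p = 0.129 from edgeR and 0.00730 from DESeq2), and without old replicate 2 it lost the DESeq2 call (1.37, adjusted p = 0.0945). C4b (ENSRNOG00000070397) had 6, 4 and 0 counts in young against 34, 65 and 38 counts in old libraries. Its log2 fold change of 3.70 (adjusted p = 0.0913 from edgeR and 0.000390 from DESeq2) rests on few young reads. Both encode C4, which C1s cuts, and their sequences are so close that reads may be split between them. The old libraries lay above the young in each.

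Cfi (ENSRNOG00000053400), a protease that inactivates C3b with the help of cofactors, had 47, 25 and 2 counts in young and 74, 250 and 90 in old. Cfi did not pass either test (log2 fold change 2.42, adjusted p = 0.212 from edgeR and 0.0726 from DESeq2). All of its old libraries lay above all of its young libraries, though from few counts. Without young replicate 1 DESeq2 called Cfi higher (adjusted p = 0.00795), where it called 2.27% of all genes higher. DESeq2 did not call Cfi with any other library left out.

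None of the regulators Cd46, Cd59b and Clu passed a test with all libraries. Cd46 (ENSRNOG00000008193), a cofactor for Cfi, had 100.3, 109 and 100.3 CPM in young against 88.9, 95.1 and 98.7 CPM in old libraries. The old libraries lay just below the young, and the log2 fold change of -0.13 had an interval from -0.34 to 0.08 (adjusted p = 0.400 from edgeR). Cd59b, one of the genes for the inhibitor of the lytic pore, had 34.1, 47.4 and 41.0 CPM in young and 23.0, 37.8 and 40.7 CPM in old (log2 fold change -0.27, interval -0.84 to 0.30). Clu, which encodes the fluid-phase inhibitor clusterin, had 32.4, 44.3 and 23.3 CPM in young and 14.0, 30.7 and 18.9 CPM in old. The groups overlapped for Clu (log2 fold change -0.65, interval -1.49 to 0.18). DESeq2 called Clu lower only without old replicate 2 (log2 fold change -1.02, adjusted p = 0.0375), where it called 346 genes lower in all.

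C5ar2 (ENSRNOG00000049028), a receptor for C5a that does not couple to G proteins, had 1.55, 2.13 and 1.06 CPM in the young libraries. In the old libraries it had 7.10, 6.71 and 12.0 CPM, each at least 3 times the highest young value. Its log2 fold change of 2.44 had a 95% confidence interval from 1.57 to 3.31. This was the lowest adjusted p of the 23 complement genes in edgeR (0.0557), DESeq2 called it (adjusted p = 1.52e-08), and without old replicate 1 edgeR called it as well (2.56, adjusted p = 0.0315), where it called 1.58% of all genes higher. Cd93, a membrane protein of endothelial and myeloid cells once described as a C1q receptor, had 5.89, 13.2 and 4.07 CPM in young and 1.77, 2.98 and 2.57 CPM in old. DESeq2 called Cd93 lower (log2 fold change -1.67, adjusted p = 0.00890), but not without young replicate 2 (-1.04, adjusted p = 0.0679), and edgeR gave an adjusted p of 0.130.

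**Figure D3:**
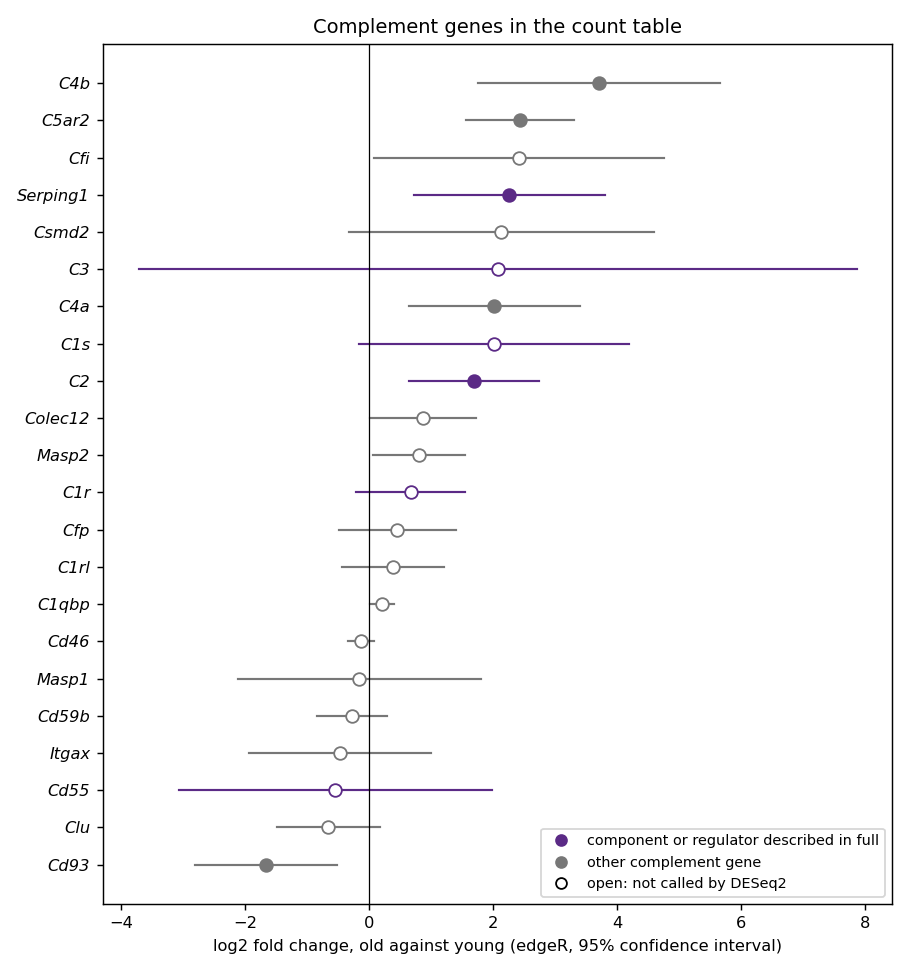
Log2 fold change of old against young VSM cells in edgeR (points, horizontal axis) with 95% confidence intervals (lines) for 22 of the 23 complement genes in the table (rows), filled where DESeq2 called the gene. Filled points lie above 0 for C4b, C5ar2, Serping1, C4a and C2 and below 0 for Cd93, and the interval of C3 is the widest, from -3.71 to 7.86.

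Masp1 (ENSRNOG00000001827), the protease of the lectin route, repeated the pattern of Cd55. It had 950.2, 902 and 151 CPM in young against 632, 993 and 173 CPM in old libraries, so replicate 3 was low in each age group. Its log2 fold change was -0.16 (interval -2.12 to 1.81, adjusted p = 0.921 from edgeR). Likeness between genes was measured as the root mean square difference between log2 CPM profiles over the 6 libraries, each centered on its own mean. By this measure the complement gene nearest to Cd55 was Masp1 (0.428), nearest to C1r was C1rl (0.144), a gene for a protease related to C1r and its neighbor on the chromosome, and nearest to Serping1 was C4a (0.417). C1s was nearest to Cfi (0.535), C2 to Masp2 (0.631) and C3 to Cd55, though at a distance of 2.97.

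Of 8567 genes averaging at least 10 CPM, the nearest to Cd55, the member with the most counts, were Pde2a (0.207), Rasl12 (0.405) and Masp1. Pde2a, a phosphodiesterase gene, had 102, 84.4 and 5.37 CPM in young against 33.4, 63.4 and 8.97 CPM in old libraries. Rasl12 had 60.01, 46.3 and 5.64 CPM in young and 29.5, 107 and 8.004 CPM in old. As for Cd55, the lowest library of each age group was replicate 3 in both genes. This is part of the likeness by which they were chosen and not a separate result.

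**Figure D4:**
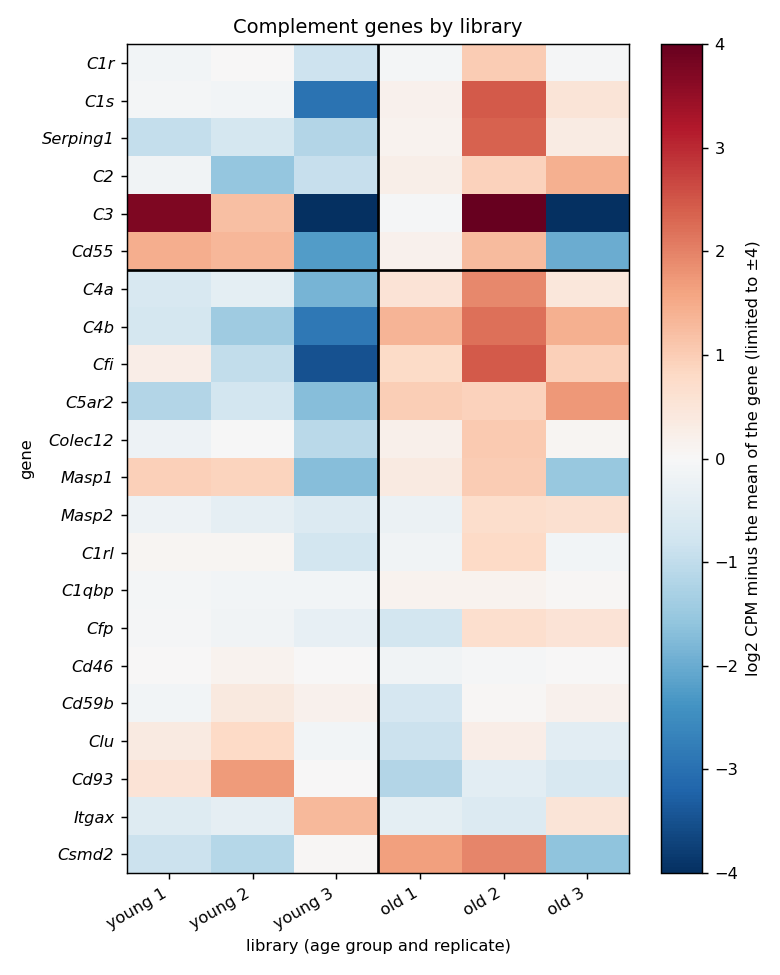
Log2 CPM of 22 of the 23 complement genes (rows) in the 6 libraries (columns), as the difference from the mean of the gene (color, limited to ±4), with the 6 genes looked up first above the line. Old replicate 2 is the highest library in 14 of the 22 rows and young replicate 3 the lowest in 13, and C3, Cd55 and Masp1 are low in replicate 3 of each age group.

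Genes of the cytokine signaling known to induce complement genes were listed together and are called inducers here. The list holds receptors, kinases, factors and Socs3, so not every gene on it is itself an inducer. Of 24 listed, 23 were in the table. In 5 the old libraries all lay above the young (14.5% of all genes), and in 0 all below. The 5 were Il6st, Ifnar1, Jak2, Stat2 and Tnfrsf1a, the last 4 named after their values were seen. By fold change 16 of the 23 were higher and 7 lower in old, and the median change was 0.16 on the log2 scale. edgeR called 0 of them, with 5 of the 23 at an unadjusted p under 0.05 (22.6% of all genes), limma-voom called 0, and DESeq2 called 1 (5.56% of all genes). This was Il6st (ENSRNOG00000013963), the signal-transducing receptor chain shared by interleukin-6 and related cytokines, at 418, 320.2 and 395 CPM in young against 955, 1269 and 865 CPM in old libraries. Its log2 fold change was 1.45 (95% confidence interval 0.98 to 1.91, adjusted p = 0.0531 from edgeR and 9.75e-10 from DESeq2). With a filter of 1 CPM in 3 libraries edgeR called Il6st too, along with 0.262% of all genes in that direction. Il6 itself had 160.2, 73.9 and 9.40 CPM in young and 13.5, 91.1 and 2.57 CPM in old, and so overlapped (log2 fold change -1.18, interval -4.47 to 2.10).

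Of the factors Cebpd, Cebpb, Stat3, Irf1 and Nfkb1, 0 were called by edgeR, DESeq2 or limma-voom with all libraries, and 0 had an unadjusted edgeR p under 0.05. Cebpd had 56.5, 44.2 and 12.1 CPM in young and 33.2, 90.3 and 15.9 CPM in old, with replicate 3 lowest in each group and old replicate 2 highest of all. Cebpb had 45.2, 44.8 and 17.7 CPM in young and 35.9, 76.6 and 39.6 CPM in old. The log2 fold changes were 0.30 (interval -1.52 to 2.13) for Cebpd and 0.50 (interval -0.56 to 1.56) for Cebpb. The intervals were -0.44 to 0.28 for Stat3, -0.34 to 0.61 for Irf1 and -0.80 to 0.41 for Nfkb1, and for none of them did the age groups separate.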

How the data were processed

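RNA of cultured VSM cells, 3 young and 3 old libraries by GEO title, was sequenced as stranded polyA libraries in read pairs. The deposited table holds raw counts per gene, which the authors made by trimming (Trim Galore 0.6.7, cutadapt 3.5), alignment with STAR 2.7.10b and counting with featureCounts of Subread 2.0.8. The sources used here do not give the settings for strand, mates and reads with several matches. Between 68.7% and 71.1% of counts from 1 to 19 were even. The counts on genes of each library also exceeded the highest read depth per sample that the study gives. Both mates of a pair may thus have been counted, and halved counts were an alternative.

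From the counts, edgeR 4.0.16 (R 4.3.3) fitted age alone over all 14475 genes by the quasi-likelihood test, with TMM scaling and Benjamini-Hochberg adjustment. DESeq2 1.42.0 (Wald test, alpha 0.05; no adjusted p for 292 genes) and limma-voom (limma 3.58.1), both run here, were alternatives, as were other filters, scalings, thresholds, the replicate number as a block, and each library left out. Ratios were tested by an exact permutation test. The fits were also tested on simulated independent counts, in which no library was set apart from its group. That test cannot decide between the tools for the libraries used here. The labels do not say that libraries are separate cultures, though the study names 3 rats per group, so p-values measure the spread between these samples.

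The members and all lists were chosen with earlier results of these data known. Named were every member, every other complement gene or inducer called by edgeR or DESeq2, a set of regulators and factors listed with them, and the nearest genes by profile. A few listed genes are counted but not reported by name here. The calls of Masp2, Clu and Cfi with a library left out were singled out after they were seen. So were the leading gene of each marker sum and Postn. Gene neighbors and promoter windows came from RefSeq tables of GRCr8, an assembly other than the one used for alignment, so no coordinates of the counts were taken from it.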

Additional observations from a re-analysis of the deposited data

How the results depend on the processing

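The tool decided most calls. Over all genes edgeR called 1, DESeq2 805, limma-voom 0, edgeR with a filter of 1 CPM in 3 libraries 65, and edgeR at an adjusted p under 0.1 called 381. With each library left out, edgeR called 0 to 732 genes, the 732 without old replicate 1, and DESeq2 551 to 1377 (737, 551 and 600.0 without young replicate 1, 2 or 3, and 1377, 614 and 651 without old replicate 1, 2 or 3). Of the 6 complement genes edgeR called 0 with any library left out and DESeq2 2 each time. Of the other 17, DESeq2 called 5, edgeR at an adjusted p under 0.1 called 3, edgeR with a library left out 0 to 3 (3 without old replicate 1, C5ar2 and Masp2 among them) and DESeq2 4 to 6. Of the inducers, DESeq2, the 1 CPM filter and an adjusted p under 0.1 each called 1, edgeR with a library left out 0 to 1, and DESeq2 1 each time. The log2 fold change of C3 turned to -3.35 without old replicate 2 in both edgeR and DESeq2, and edgeR gave up to 4.23 (without young replicate 1). With each library left out, log2 ratio differences ranged from -1.869 to -0.783 for C1r to C1s, from -1.495 to -0.92 for C1r to Serping1, from -0.626 to 0.688 for C1s to Serping1 and from -1.182 to 0.546 for C2 to C1s, the latter also reversed without old replicate 2 (0.297). The causes were not tested.

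With the replicate number as a block, edgeR called 1 gene in all and 0 of the 6 complement genes, the other 17 or the inducers. Deviations of same-numbered libraries correlated at 0.063, 0.322 and 0.313. Young replicate 1 correlated best with old replicate 2 (0.354), and young replicates 2 and 3 each with the old library of the same number. The labels give no pairing, and whether same-numbered libraries share a batch was not tested. C4b and Cfi rest on few counts in young libraries, and at this depth 3 counts correspond to 0.0499 to 0.0665 CPM.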
